A study of Mus musculus with 64 samples.

Results

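The Foxp3 effect was compared between 2 states of the same kind of cell. The cells were Treg wannabe cells, that is CD4+ T cells of mouse spleen and lymph nodes that transcribe a Foxp3 locus from which no Foxp3 protein is made until the locus is repaired. For each gene the log2 difference between plusFoxp3 and minusFoxp3 libraries (the Foxp3 effect) was taken in resting cells and in active cells, and the active effect was subtracted from the resting effect. A positive state difference thus means a Foxp3 effect that was more positive, or less negative, in resting cells. The comparison used all 32 libraries collected 3, 7, 14 and 28 days after 4-hydroxytamoxifen, of 64 libraries in the series, with 8 libraries in each of the 4 arms.

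All mice carried Foxp3-LSL, a reporter-null allele in which a floxed Thy1.1 STOP cassette keeps Foxp3 off. In Foxp3-LSLCD4-CreERT2 mice a Cre that tamoxifen turns on is made from the Cd4 gene, so that a single dose of 4-hydroxytamoxifen removes the cassette in CD4-expressing cells and both Foxp3 and GFP are made. These cells, sorted as GFP+, were the plusFoxp3 libraries. Littermates of the genotype Foxp3-LSLCD4-WT lacked the Cre and received the same 4-hydroxytamoxifen, and their Thy1.1+ GFP- cells were the minusFoxp3 libraries. The mice of this experiment were heterozygous females, which also hold Treg cells with the normal allele, so neither genotype was free of Treg cells. Resting cells were sorted as CD44 lo and active cells as CD44 hi, among other gates, with 2 libraries per state, genotype and day. A further 8 libraries of the same states and genotypes were taken at day 0, without 4-hydroxytamoxifen, and did not enter the fit.

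Foxp3 is the transcription factor that defines regulatory T (Treg) cells, which restrain other T cells. It raises genes such as the interleukin-2 receptor and lowers effector cytokine genes, largely together with other factors bound to the same DNA. Resting and active T cells differ in the genes they already use: resting cells keep lymph node homing and quiescence genes on, whereas active cells use chemokine receptors, cytokines and effector molecules.

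Each library held 35097257 to 57419138 read pairs assigned to genes, and arm medians ran from 46341187.5 in resting minusFoxp3 to 51308499.5 in active plusFoxp3 cells. Siglech, a surface receptor of plasmacytoid dendritic cells, stood at 22.8, 125, 51.3 and 68.9 CPM (the count scaled to the size of the library) in 4 active minusFoxp3 libraries (day 3 replicate 1 and replicate 2 of days 7, 14 and 28). The other 4 active minusFoxp3 libraries of these days held 2.41 to 5.05 CPM, and no library of the other arms exceeded 1.25 CPM. The count of genes that differ between states was therefore also taken without these 4 libraries. In bulk RNA, fewer cells of a type and less RNA per cell cannot be told apart. The P values below measure the spread between libraries. The study describes 2 independent biological replicates for each genotype and time point. The labels do not say whether resting and active libraries of a genotype and day came from the same mice. The main fit treated all libraries as independent.

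The repaired gene and the reporter gave the direction that the labels name in both states. Foxp3 stood at 448 to 615 CPM (median 591) in resting plusFoxp3 and 47.3 to 81.5 CPM (median 59.6) in resting minusFoxp3 libraries. In active cells it stood at 426 to 594 CPM (median 544) with and 44.3 to 63.5 CPM (median 55.4) without Foxp3. The arms with and without Foxp3 were thus separate in both states, at nearly the same levels. The Foxp3 effect on its own transcript was 3.23 in resting and 3.34 in active cells on the log2 scale, and the state difference was -0.12 (SE 0.14, adjusted P = 0.80). Thy1, whose counts can include the cassette's Thy1.1, had effects of -2.61 and -2.13 and a state difference of -0.48 (SE 0.16, adjusted P = 0.148). Cd4, the gene of the Cre driver, was lower by nearly the same amount in both states (-0.80 and -0.81), with a state difference of 0.01 (SE 0.12, adjusted P = 0.985). It was already lower in the Cre genotype at day 0, at 597 and 535 CPM against 787 and 1031 CPM in active cells. In resting cells it then stood at 447 and 449 CPM against 463 and 644 CPM. Cd44, the gene of a sorting marker, had a state difference of 0.15 (SE 0.12, adjusted P = 0.659). Its median was 91.3 CPM in resting and 225 CPM in active plusFoxp3 libraries, and 78.3 and 228 CPM in minusFoxp3 libraries, so the sorted states were apart in its RNA in both genotypes.

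Of 20736 genes with a mean count of at least 10, 303 (1.46%) had a state difference by edgeR's quasi-likelihood test at a Benjamini-Hochberg adjusted P under 0.05. The difference was positive for 198 genes (0.955%) and negative for 105 (0.506%), and the median over all tested genes was -0.01. Within a single state, 1334 genes (6.43%) were called for the Foxp3 effect in resting cells and 1508 (7.27%) in active cells. Of the 198 positive genes, 87 rose in resting cells and were not called in active cells, while 85 fell in active cells and were not called in resting cells. A further 5 rose in resting and fell in active cells, 4 fell in both, 3 rose in both and 14 were called in neither. Of the 105 negative genes, 57 rose in active cells and were not called in resting cells, and 29 fell in resting cells and were not called in active cells. Another 7 rose in both, 2 fell in resting and rose in active cells, 2 fell in both and 8 were called in neither. Most state differences were thus effects called in a single state, and few were opposite calls. Without the 4 Siglech libraries 141 genes were called (96 positive and 45 negative), of which 127 were among the 303.

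**Figure D1:**
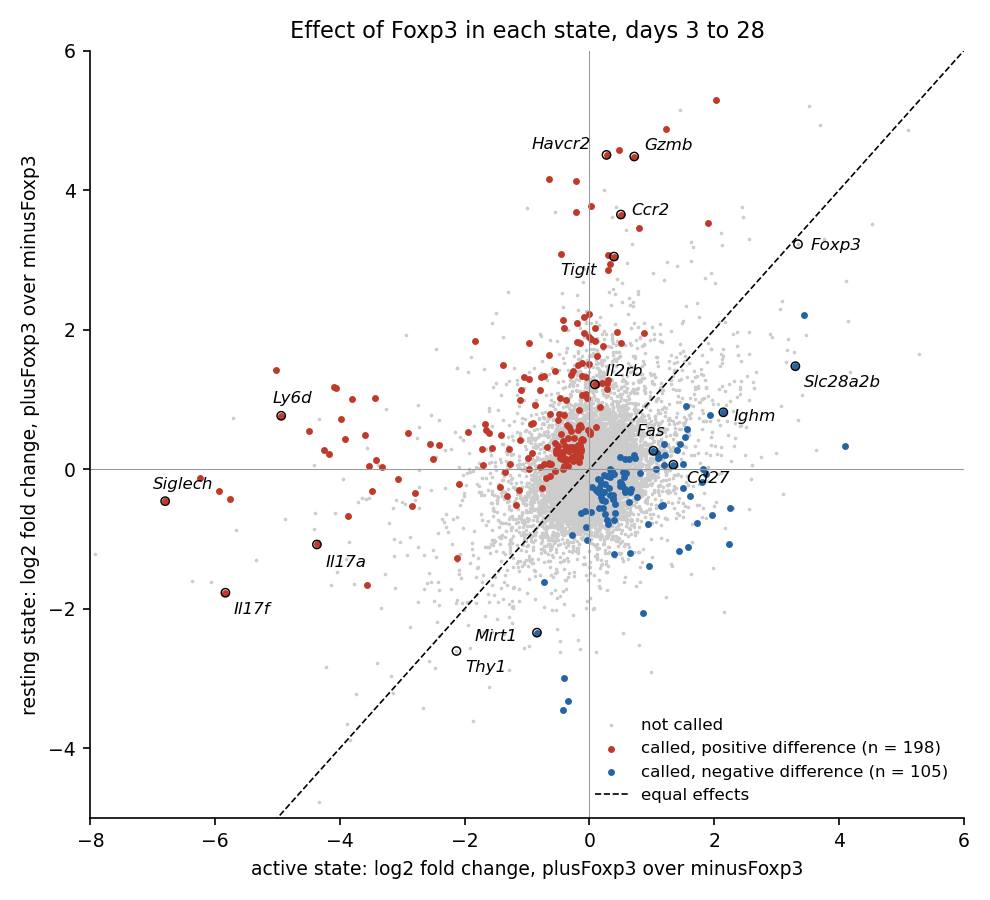
Foxp3 effect (log2 plusFoxp3 over minusFoxp3) in active cells (horizontal axis) and resting cells (vertical axis) for all tested genes, with the 198 positive and 105 negative genes in color and selected genes named; 8 genes lie outside the axes. Foxp3 lies close to the diagonal of equal effects, Il17a and Il17f far to the left of it, Ccr2 and Havcr2 high above the middle, and Cd27 to the right of it.

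The best-known effector genes among the 303 were the interleukin-17 cytokines of T helper 17 cells. Il17a (chr1:20801129-20804720, GRCm39, plus strand) and Il17f (chr1:20847370-20860841, minus strand) are neighbors on chromosome 1. The 250 bases before each start are given with those of Cd27, which rose in active cells, because these 3 genes show a fall and a rise in active cells. RefSeq's start of Il17f lies inside the longer GENCODE gene span given above, judged by its distance from Il17a in each build. The sequences are RefSeq's on the build GRCm38.p6, 5′ to 3′ on the gene's strand, at chr1:20730655-20730904 for Il17a, chr1:20784271-20784520 for Il17f and chr6:125237028-125237277 for Cd27. Capitals mark matches on either strand to AP-1 (TGANTCA), the ROR motif (AGGTCA) or a forkhead motif (TGTTTAC), searched without mismatch.
Il17a: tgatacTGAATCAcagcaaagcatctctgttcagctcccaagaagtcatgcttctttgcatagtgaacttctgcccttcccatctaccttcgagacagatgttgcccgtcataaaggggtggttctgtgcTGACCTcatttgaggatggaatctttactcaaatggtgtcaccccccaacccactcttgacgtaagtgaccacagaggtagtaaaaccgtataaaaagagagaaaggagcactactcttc
Il17f: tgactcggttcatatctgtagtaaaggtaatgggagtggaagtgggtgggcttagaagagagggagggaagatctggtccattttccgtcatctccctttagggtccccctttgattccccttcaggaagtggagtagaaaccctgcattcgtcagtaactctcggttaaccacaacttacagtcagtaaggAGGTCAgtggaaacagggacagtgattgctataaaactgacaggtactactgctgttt
Cd27: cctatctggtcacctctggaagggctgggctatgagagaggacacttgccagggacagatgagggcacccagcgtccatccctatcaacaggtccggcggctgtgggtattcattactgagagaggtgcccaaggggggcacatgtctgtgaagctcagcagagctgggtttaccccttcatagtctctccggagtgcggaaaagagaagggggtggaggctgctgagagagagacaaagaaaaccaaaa
The Il17a window held an AP-1 match 244 to 238 bases before the start and an AGGTCA on the other strand at 120 to 115 bases. The Il17f window held an AGGTCA at 58 to 53 bases, and the Cd27 window held none of the 3 motifs. No matches overlapped. Over all 32851 RefSeq promoter windows of this length, 6.75% held the AP-1 motif, 14.0% the ROR motif and 3.17% the forkhead motif, so single matches of this kind are common and are given as a description.

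Il17a and Il17f fell in active cells, where they were abundant without Foxp3. Il17a stood at 302 to 763 CPM (median 459) in active minusFoxp3 and 2.24 to 55.7 CPM (median 27.0) in active plusFoxp3 libraries, with no overlap. In resting cells its levels were near the bottom of the scale, at 0.259 to 2.75 CPM (median 1.54) without and 0.0193 to 1.88 CPM (median 0.679) with Foxp3, and these overlapped. The Foxp3 effect on Il17a was -4.37 in active cells and -1.08 in resting cells (adjusted P = 0.260), a state difference of 3.29 (SE 0.67, adjusted P = 0.00986). Il17f fell in both states, by 5.84 in active and 1.77 in resting cells on the log2 scale, a state difference of 4.06 (SE 0.62, adjusted P = 0.000464). Its median went from 248 to 3.83 CPM in active cells and from 1.77 to 0.500 CPM in resting cells. At day 0 Il17a was already lower in the Cre genotype's active cells, at 203 and 273 CPM against 553 and 508 CPM. Il17f was lower there too, at 172 and 114 CPM against 319 and 228 CPM. The genotypes were thus not alike in these genes before treatment. Both genes were also called without the 4 Siglech libraries (3.41 for Il17a and 4.31 for Il17f). The call of Il17a was lost with limma voom (2.52, adjusted P = 0.188), without the count filter (3.27, adjusted P = 0.0514), without day 7 (2.94, adjusted P = 0.133) or day 14 (3.12, adjusted P = 0.0915), and in libraries numbered 1 (4.15, adjusted P = 0.076) or 2 alone (2.21, adjusted P = 0.527).

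The 2 interleukin-17 genes were the called members of both the helper cytokine list (2 of 13 tested genes, 15.4%) and the Th17 list (2 of 12, 16.7%), against 1.46% over all genes. In the Th17 list 11 of 12 differences were positive, with a median of 0.50 against -0.01 over all genes. The cytokine genes were not uniform: Il4, the T helper 2 cytokine, had Foxp3 effects of -2.20 in resting and -2.45 in active cells and a state difference of 0.25. None of 8 Th2 genes was called for the difference by edgeR (3 at an unadjusted P under 0.05, 2 by DESeq2). In the cytotoxic list Klrk1, which encodes the activating receptor NKG2D, fell by 2.09 on the log2 scale in active cells and had an effect of -0.21 in resting cells, a state difference of 1.88 (SE 0.35, adjusted P = 0.00478). Its levels were 9.42 to 37.6 CPM (median 18.5) in active minusFoxp3 and 2.43 to 13.4 CPM (median 3.83) in active plusFoxp3 libraries. The overlap came from a single plusFoxp3 library, day 28 replicate 1, and the next highest held 4.76 CPM.

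**Figure D2:**
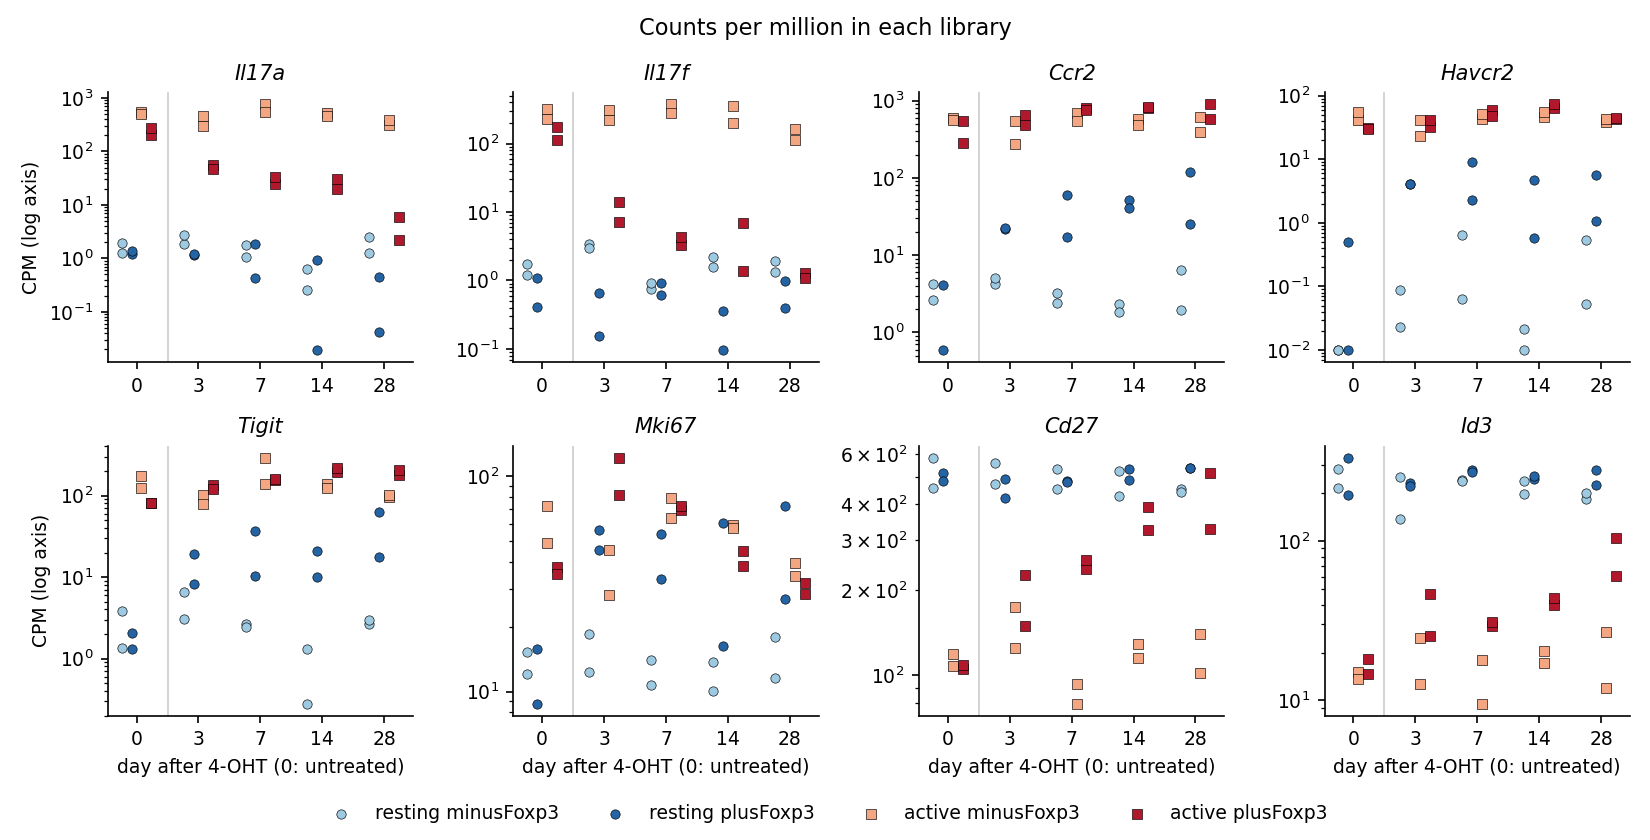
Level of each of 8 genes (CPM, log axis, values under 0.01 drawn at 0.01) by day after 4-hydroxytamoxifen, with 1 point per library in the 4 arms and day 0 left of the gray line. With Foxp3, Il17a lies at 2.24 to 55.7 CPM in active cells against 302 to 763 CPM without it, Ccr2 climbs in resting cells to 17.1 to 120 CPM, and Cd27 climbs in active cells to 149 to 518 CPM while its resting levels stay together.

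The other large set of positive genes, 87 of 198, rose in resting cells and was not called in active cells. Without Foxp3, 180 of the 198 positive genes had a higher median in active than in resting cells, and with Foxp3 95 did. Ccr2, a receptor for monocyte-attracting chemokines, stood at 17.1 to 120 CPM (median 32.7) in resting plusFoxp3 and 1.85 to 6.4 CPM (median 2.85) in resting minusFoxp3 libraries. These did not overlap, whereas the active libraries did, at 483 to 895 CPM (median 773) with and 277 to 685 CPM (median 548) without Foxp3. The effect on Ccr2 was 3.65 in resting and 0.50 in active cells, a state difference of 3.15 (SE 0.43, adjusted P = 0.000116). Even so, the median resting level was 4.23% of the active one with Foxp3 and 0.519% without it. Cxcr6 (2.27) and Ccr10 (3.90), other chemokine receptors, and Itgae (1.63), the integrin chain CD103 that binds E-cadherin, also had positive state differences. The homing list thus had 5 of 24 genes called, all positive (20.8%), with a median difference of 0.09. Without the 4 Siglech libraries 4 of the 5 were called, and Itgae was not (1.53, adjusted P = 0.133); its call was also lost in 20 of the 32 fits that left out 1 library. The effect on Cxcr6 differed in sign between states, at 1.30 in resting cells and -0.97 in active cells (adjusted P = 0.0527). Itgae rose in both states, by 3.52 in resting and 1.90 in active cells. Ccr10 was low in both states, at active medians of 1.28 CPM with and 1.785 CPM without Foxp3. Its resting medians were 1.86 and 0.115 CPM.

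Inhibitory receptors and effector molecules of Treg cells had the same pattern. Havcr2, which encodes the inhibitory receptor TIM-3, was at 0.580 to 8.98 CPM (median 4.08) in resting plusFoxp3 and 0 to 0.655 CPM (median 0.0581) in resting minusFoxp3 libraries. The effect was 4.51 in resting and 0.27 in active cells, a state difference of 4.23 (SE 0.65, adjusted P = 0.000464). Tigit, an inhibitory receptor of T cells, ran from 8.11 to 62.6 CPM (median 18.2) with and 0.281 to 6.47 CPM (median 2.69) without Foxp3 in resting cells, without overlap. Its state difference was 2.66 (SE 0.53, adjusted P = 0.00836), from effects of 3.05 and 0.39. Gzmb, the protease granzyme B of cytotoxic granules, reached 23.3 CPM in a single resting plusFoxp3 library against a median of 3.49 CPM, and was at 0 in 2 of 8 resting minusFoxp3 libraries. Its state difference was 3.77 (SE 0.87, adjusted P = 0.0218), and that of Pvrig, another inhibitory receptor, was 4.11 (SE 0.80, adjusted P = 0.00701) with 5 resting minusFoxp3 libraries at 0. Without resting plusFoxp3 day 28 replicate 1, the library with 23.3 CPM, the difference of Gzmb was 2.91 (adjusted P = 0.052). Fitted folds of genes with so few counts in an arm depend on the small count the fit adds. Prdm1, the effector regulator BLIMP-1, rose by 1.23 in resting cells and had an effect of 0.29 in active cells (state difference 0.95, SE 0.23, adjusted P = 0.0319). In the effector Treg list 4 of 21 genes were called, all positive (19.0%, median 0.16), and 3 of these 4 without the Siglech libraries, with Prdm1 at 0.91 (adjusted P = 0.0816). In libraries numbered 1 alone 3 of the 4 were called, and in those numbered 2 alone none was, with differences of 2.48 for Havcr2, 1.14 for Tigit, 0.48 for Prdm1 and 4.91 for Gzmb. In the resting plusFoxp3 arm Tigit, Gzmb, Prdm1 and Pvrig were higher in the library numbered 1 than in that numbered 2 at all 4 days. Havcr2 stood at 8.98, 4.67 and 5.59 CPM in number 1 against 2.32, 0.58 and 1.06 CPM in number 2 at days 7, 14 and 28. The part of the replicate number in these results was not tested.

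Il2rb, the interleukin-2 receptor β chain, had the lowest P value of the 303. It stood at 1001 to 1319 CPM (median 1209) in resting plusFoxp3 and 460 to 577 CPM (median 515) in resting minusFoxp3 libraries. In active cells it stood at 607 to 1001 CPM (median 665) with and 618 to 759 CPM (median 716) without Foxp3. The resting arms were separate and the active arms overlapped, and the resting level went from 72.0% of the active level without Foxp3 to 182% with it. The state difference was 1.13 (SE 0.11, adjusted P = 8.78e-07), from effects of 1.22 and 0.09, and was called in libraries numbered 1 alone (1.11) and numbered 2 alone (1.15). Fgl2, a secreted suppressor molecule of Treg cells, stood at 7.49 to 31.0 CPM (median 16.4) with and 1.76 to 6.4 CPM (median 4.31) without Foxp3 in resting cells, a state difference of 1.52 (SE 0.34, adjusted P = 0.0190). The Treg signature list had 3 positive and 1 negative call among 22 genes (18.2%, median 0.09), and 14 of its genes rose in each state. Among cytokine receptors and their SOCS inhibitors 3 genes were positive (Il2rb, Il1r2 and Cish) and 2 negative (Il18r1 and Il21r) of 25, and 2 of these 5 were called without the Siglech libraries, where Il18r1 (-0.84, adjusted P = 0.103) and Il21r (-0.80, adjusted P = 0.0779) kept nearly the same size. Il1r2, the interleukin-1 decoy receptor, had effects of 1.40 in resting and -0.56 in active cells and a state difference of 1.96 (SE 0.44, adjusted P = 0.0212).

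Cell cycle genes lay on 1 side. All 28 had a positive difference, with a median of 1.49, and 7 were called (25.0%): Mki67, Cdk1, Mcm3, Mcm6, Rrm2, Tk1 and Ube2c. In resting cells 26 of the 28 rose with Foxp3, and in active cells none was called by edgeR (1 at an unadjusted P under 0.05, 0 by DESeq2). The summed level of the list ran from 1111 to 2680 CPM (median 2283) in resting plusFoxp3 and 988.5 to 1280 CPM (median 1122) in resting minusFoxp3 libraries. In active cells the sums were 1118 to 3153 CPM (median 1690) with and 1415 to 2525 CPM (median 1715) without Foxp3. The active sums changed sides between days: at day 3 they were 2240 and 3153 CPM with against 1459 and 1415 CPM without Foxp3, and at day 14 1214 and 1297 CPM against 2525 and 1888 CPM. At day 28 they were 1118 and 1203 CPM against 1471 and 1541 CPM, and at day 0 1701 and 1267 CPM against 2227 and 1893 CPM, so the pooled active effect covers opposite days. The proliferation marker Mki67 stood at 16.3 to 72.7 CPM (median 49.6) with and 10.04 to 18.6 CPM (median 13.1) without Foxp3 in resting cells, overlapping slightly. Its state difference was 1.56 (SE 0.38, adjusted P = 0.0340), and that of Rrm2, the ribonucleotide reductase subunit that supplies DNA synthesis, was 2.05 (SE 0.49, adjusted P = 0.0272). The resting level of Rrm2 went from 37.8% of the active level without Foxp3 to 160% with it. Cdk1, the mitotic kinase, and Mcm3, a subunit of the replicative helicase, had state differences of 1.89 and 1.28. Without the Siglech libraries, of these 7 calls that of Mcm3 was kept, and Rrm2 (2.22, adjusted P = 0.0517), Cdk1 (1.99, adjusted P = 0.0844) and Mki67 (1.59, adjusted P = 0.0692) had differences as large as with them but no call from 28 libraries. The calls of Mki67 and Cdk1 were also each lost in 14 of the 32 fits that left out 1 library. In the resting plusFoxp3 arm Mki67, Rrm2, Cdk1 and Mcm3 were higher in the library numbered 1 than in that numbered 2 at all 4 days. The Mki67 difference was 1.99 in libraries numbered 1 and 0.93 in those numbered 2, called in neither set alone, and the part of the replicate number in the result was not tested. At day 3 the differences of Mki67 and Rrm2 were 0.28 and 0.51, below those of days 7 to 28 (1.77 to 2.21 and 2.20 to 3.16).

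**Figure D3:**
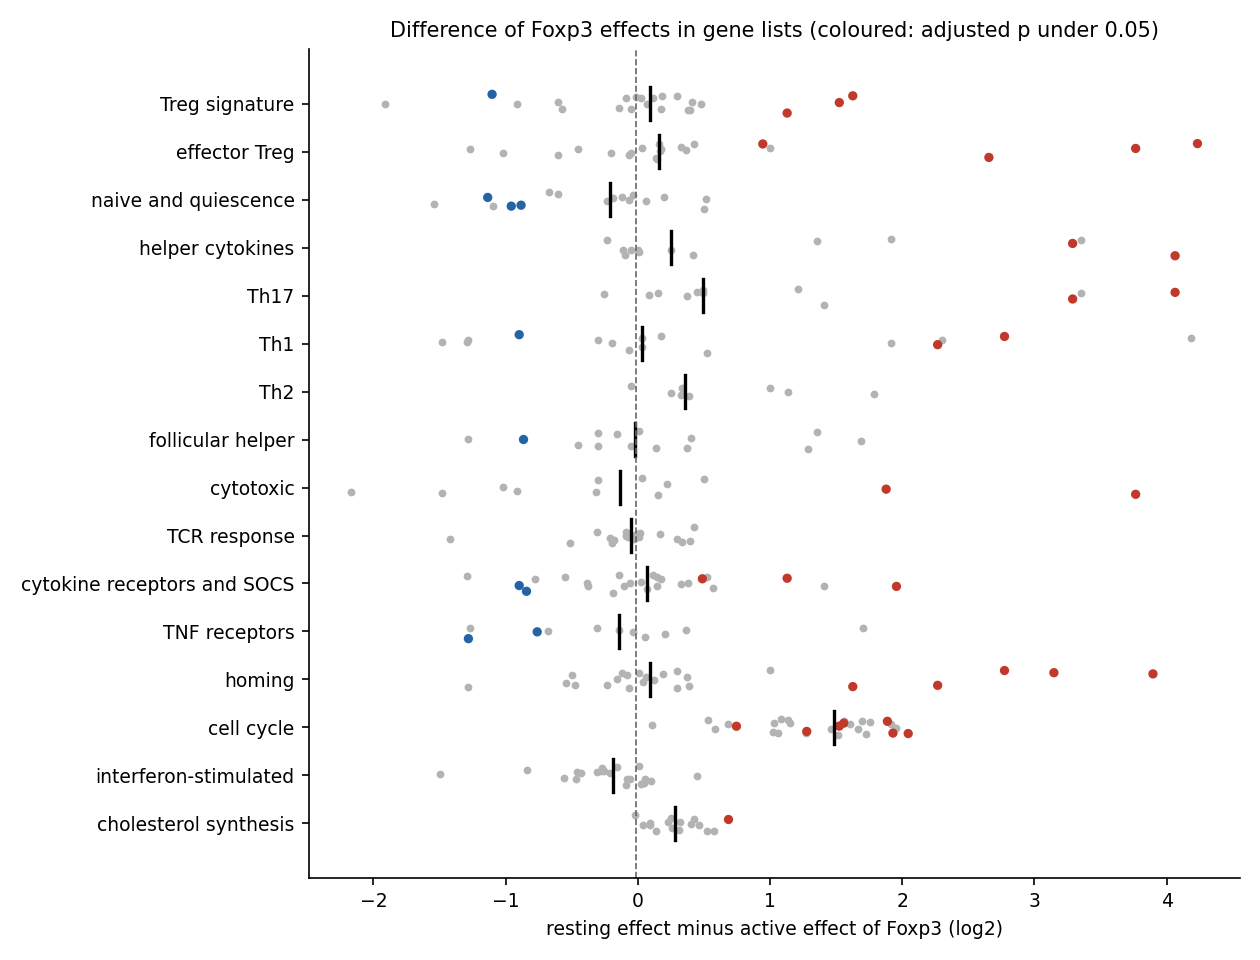
State difference (log2, resting minus active Foxp3 effect) of every tested gene in each of 16 lists (marker lists of other cells are not drawn), with 1 point per gene, called genes in red (positive) or blue (negative), a bar at the list's median and a dashed line at the median of all tested genes. Cell cycle genes all lie above 0, with a median of 1.49, and the medians of the other 15 lists drawn lie between -0.21 and 0.50.

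The largest class of negative differences was the 57 genes that rose in active cells and were not called in resting cells. Of the 105 negative genes, 8 had a higher median in active than in resting cells without Foxp3, and 50 with Foxp3. Cd27, a costimulatory receptor of the TNF receptor family kept by naive and memory T cells, stood at 422 to 538 CPM (median 488) with and 429 to 557 CPM (median 463) without Foxp3 in resting cells. In active cells it stood at 149 to 518 CPM (median 290) with and 79.6 to 174 CPM (median 120) without Foxp3. The active arms overlapped through the day 3 libraries only, at 225 and 149 CPM with and 174 and 125 CPM without Foxp3; at day 28 they were at 328 and 518 CPM against 102 and 139 CPM. The effect was 0.06 in resting and 1.35 in active cells, a state difference of -1.28 (SE 0.21, adjusted P = 0.000962). The resting level of Cd27 was thus 385% of the active level without Foxp3 and 168% with it. Fas, the death receptor, had the other call among 11 TNF receptor genes (18.2%), with a state difference of -0.76 (SE 0.14, adjusted P = 0.00472), a rise of 1.02 in active cells and no overlap there. Both were called without the Siglech libraries.

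Regulators of the naive and quiescent state were on the same side. Id3, an inhibitor of E proteins, stood at 25.4 to 105 CPM (median 42.0) with and 9.57 to 26.9 CPM (median 17.5) without Foxp3 in active cells, and 222 to 279 CPM (median 251) with and 139 to 253 CPM (median 220) without Foxp3 in resting cells. Its state difference was -1.13 (SE 0.29, adjusted P = 0.0398), a call lost in 18 of the 32 fits that left out 1 library. Lef1, the TCF family factor of naive T cells, rose by 0.67 in active cells and had an effect of -0.29 in resting cells, a state difference of -0.96 (SE 0.18, adjusted P = 0.00599). Even with Foxp3 its active median of 85.4 CPM stayed far below the resting median of 415 CPM. With Actn1, an actin crosslinker (-0.88), these were the 3 calls among 16 naive and quiescence genes (18.8%, median -0.21), and all 3 were called without the Siglech libraries. The list did not move as 1 block: Tcf7, a partner of Lef1, fell in both states, by 0.81 and 1.01 on the log2 scale, with a state difference of 0.20.

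Ikzf2, the transcription factor Helios of thymus-derived Treg cells, was the negative call of the Treg signature. It stood at 52.2 to 299 CPM (median 108) with and 35.2 to 61.6 CPM (median 46.1) without Foxp3 in active cells, and its effects were 1.46 in active and 0.35 in resting cells. The state difference was -1.10 (SE 0.27, adjusted P = 0.0319), and -1.01 without the Siglech libraries (adjusted P = 0.140). H2-Ob, a chain of the class II chaperone H2-O, rose in both states without overlap, by 0.58 in resting and 1.57 in active cells, a state difference of -0.99 (SE 0.17, adjusted P = 0.00192). Slc28a2b, of a nucleoside transporter family, also rose in both, by 1.48 and 3.30 (state difference -1.82, SE 0.33, adjusted P = 0.00335). Il21r, the interleukin-21 receptor, rose by 1.20 in active cells without overlap and had an effect of 0.36 in resting cells (state difference -0.84, adjusted P = 0.0177).

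A smaller set of negative genes fell more in resting cells. Mirt1, a noncoding transcript on chromosome 19, stood at 1.99 to 4.98 CPM (median 3.65) with and 15.5 to 21.8 CPM (median 18.5) without Foxp3 in resting cells, and 4.56 to 7.15 CPM (median 6.28) with and 9.49 to 17.0 CPM (median 10.5) without Foxp3 in active cells. Neither state's arms overlapped. Its effects of -2.35 and -0.84 gave a state difference of -1.5 (SE 0.18, adjusted P = 8.78e-06), and it was called in either replicate number alone. Il18r1, the interleukin-18 receptor, fell by 1.62 in resting and 0.72 in active cells on the log2 scale, without overlap in either (state difference -0.90, SE 0.20, adjusted P = 0.0181). Slamf6, a homotypic receptor of lymphocytes, had opposite calls: it fell by 0.29 in resting cells, at 312 to 429 CPM (median 391) with and 430 to 523 CPM (median 484) without Foxp3. It rose by 0.57 in active cells, at 383 to 565 CPM (median 498) with and 259 to 393 CPM (median 343) without Foxp3. The state difference was -0.86 (SE 0.10, adjusted P = 8.60e-06).

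The other named genes followed the same classes. Among positive genes, Ccr1, a chemokine receptor, rose by 3.09 in resting cells from a median of 0.121 CPM (state difference 3.54), and Fam167a rose by 4.13 from a median of 0.0214 CPM (4.36). Both rested on part of the arm: the resting plusFoxp3 libraries numbered 2 of days 7, 14 and 28 held 0.0675, 0.0193 and 0.0828 CPM of Ccr1, within the range without Foxp3 (0.0422 to 0.195 CPM), and 0, 0 and 0.0207 CPM of Fam167a. The libraries numbered 1 held 1.28 to 2.37 CPM of Ccr1 and 0.384 to 0.913 CPM of Fam167a, and in libraries numbered 2 alone the differences were 1.6 (adjusted P = 0.632) and 2.41 (adjusted P = 0.666). Sc5d, a late enzyme of cholesterol synthesis, fell by 0.38 in active cells and had an effect of 0.30 in resting cells (state difference 0.68, SE 0.14, adjusted P = 0.0101), the single call among 16 cholesterol genes (6.25%, median 0.29). Among negative genes Ift80, of the intraflagellar transport machinery, rose by 1.21 in active cells without overlap (state difference -1.01). Ifit1bl1 (-1.06), Pdzk1ip1 (-1.43), Tmie (-1.16), Abcb9 (-1.10) and Gramd3 (-0.99) likewise rose in active cells and were not called in resting cells.

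The 5 most positive of the named differences and that of Ly6c2 moved with the 4 Siglech libraries. Siglech itself had a state difference of 6.34 (SE 0.95, adjusted P = 0.000366), from 2.41 to 125 CPM (median 13.9) in active minusFoxp3 libraries. Without those libraries its difference was 3.24 (adjusted P = 0.000486) and that of Ly6d 2.92 (adjusted P = 0.000659), so both were called in either case. Those 4 libraries were picked by their Siglech level, so the Siglech difference without them is only a description. Pld4 (6.12, or 3.16 without them, adjusted P = 0.138), Ctsh (5.06, or 2.74), Plaur (4.53, or 1.26) and Ly6c2 (3.42, or 0.74) lost their calls. At day 0, before 4-hydroxytamoxifen, the state difference was already 7.00 (SE 2.30) for Siglech and 5.82 (SE 1.97) for Ly6d. After that day 0 value was subtracted, the differences were -0.69 for Siglech and -0.15 for Ly6d. Of 12 plasmacytoid dendritic cell genes, a list put together after the values were seen, 4 were called (33.3%), and the summed level was 119 to 763 CPM (median 179) in active minusFoxp3 libraries against 105 to 235 CPM in the other 3 arms. The 4 libraries held 224 to 763 CPM of it and the other 4 active minusFoxp3 libraries 119 to 134 CPM. Summed myeloid markers ran to 70.1 CPM in active minusFoxp3 libraries (median 27.3) and to at most 20.5 CPM elsewhere, and 1 of 8, Tyrobp, was called. Il17a, Il17f, Ccr2, Havcr2, Tigit, Il2rb, Cd27, Id3 and Lef1 were called without those libraries, at differences of 3.41, 4.31, 3.40, 4.24, 2.83, 1.08, -1.38, -1.48 and -1.0.

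**Figure D4:**
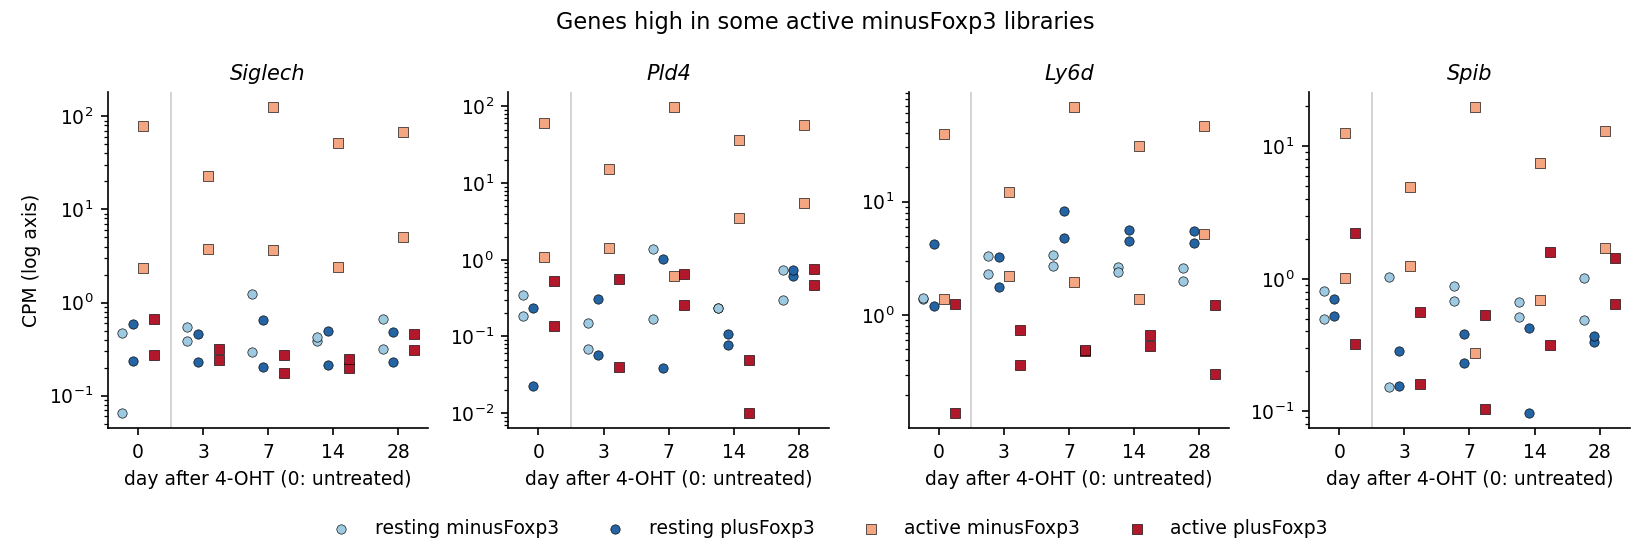
Levels of 4 plasmacytoid dendritic cell genes (CPM, log axis, values under 0.01 drawn at 0.01) by day after 4-hydroxytamoxifen, with 1 point per library in the 4 arms and day 0 left of the gray line. In each panel the same active minusFoxp3 library of every day lies above the others, at 22.8 to 125 CPM of Siglech at days 3 to 28 and 78.5 CPM at day 0.

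Some genes of the lists, chosen after their values were seen, had small state differences or differences that did not pass the test, which does not show that the effects were equal. In the Treg signature list 9 of 22 genes had an unadjusted P under 0.05, with differences from -1.91 to 1.63. The inhibitory receptor Ctla4 had a state difference of -0.02 (SE 0.18), Gpr83, a receptor typical of Treg cells, one of 0.03 (SE 0.33) with effects of 1.55 and 1.52, and Cxcr3, a T helper 1 chemokine receptor, one of -0.07 with effects of 2.11 and 2.17. Il2ra, the interleukin-2 receptor α chain, had a difference of 0.38 with an adjusted P of 0.0555, so the α and β chains of that receptor fell on either side of the threshold. Lrrc32, which tethers latent TGF-β, had effects of 1.76 and 2.37 and a difference of -0.61 (adjusted P = 0.330). By edgeR no gene was called among 19 T cell receptor response genes (median -0.05, 2 at an unadjusted P under 0.05, 0 by DESeq2) or 22 interferon-stimulated genes (median -0.19, 2 at an unadjusted P under 0.05, 0 by DESeq2). In the Th1 list 2 genes, Cxcr6 among them, were positive and Il18r1 negative of 16 (18.8%), and Slamf6 was the only call among 14 follicular helper genes (7.14%). The remaining lists were markers of other cells: 1 of 8 B cell genes (Ighm), 1 of 7 T cell genes (Trac) and 1 of 2 thymocyte genes (Dntt) were called, and by edgeR none of 3 tested CD8 and NK cell genes (2 at an unadjusted P under 0.05, 0 by DESeq2) or of 5 erythroid genes (0 at an unadjusted P under 0.05, 0 by DESeq2).

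Taken day by day the differences kept their sign, but few were called from the 8 libraries of a single day. At day 3 no gene was called (0.0%), at day 7 6 genes (0.0289%), at day 14 2 genes (0.00965%) and at day 28 12 genes (0.0579%). At an unadjusted P under 0.05 edgeR gave 710, 1595, 1809 and 1112 genes, and DESeq2 called 4, 40, 159 and 70. Cd27 was called at days 7 and 28 (-1.59 and -1.53), as was Il17f (6.22 and 5.58), with a difference of -0.47 for Cd27 and 1.55 for Il17f at day 3. Among the 198 positive genes 195 had a positive difference on each of the 4 days, and 101 of the 105 negative genes a negative one on each; these days are the ones the fit pooled, so their signs are a description. The median of the positive genes was 0.69 at day 3, 1.34 at day 7, 1.5 at day 14 and 1.46 at day 28, and that of the negative genes -0.60, -0.91, -0.90 and -0.92. Day 3 thus had the smaller differences on both sides. A test of change across the 4 days called no gene (0.0%), with 659 at an unadjusted P under 0.05 and 9 called by DESeq2.

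**Figure D5:**
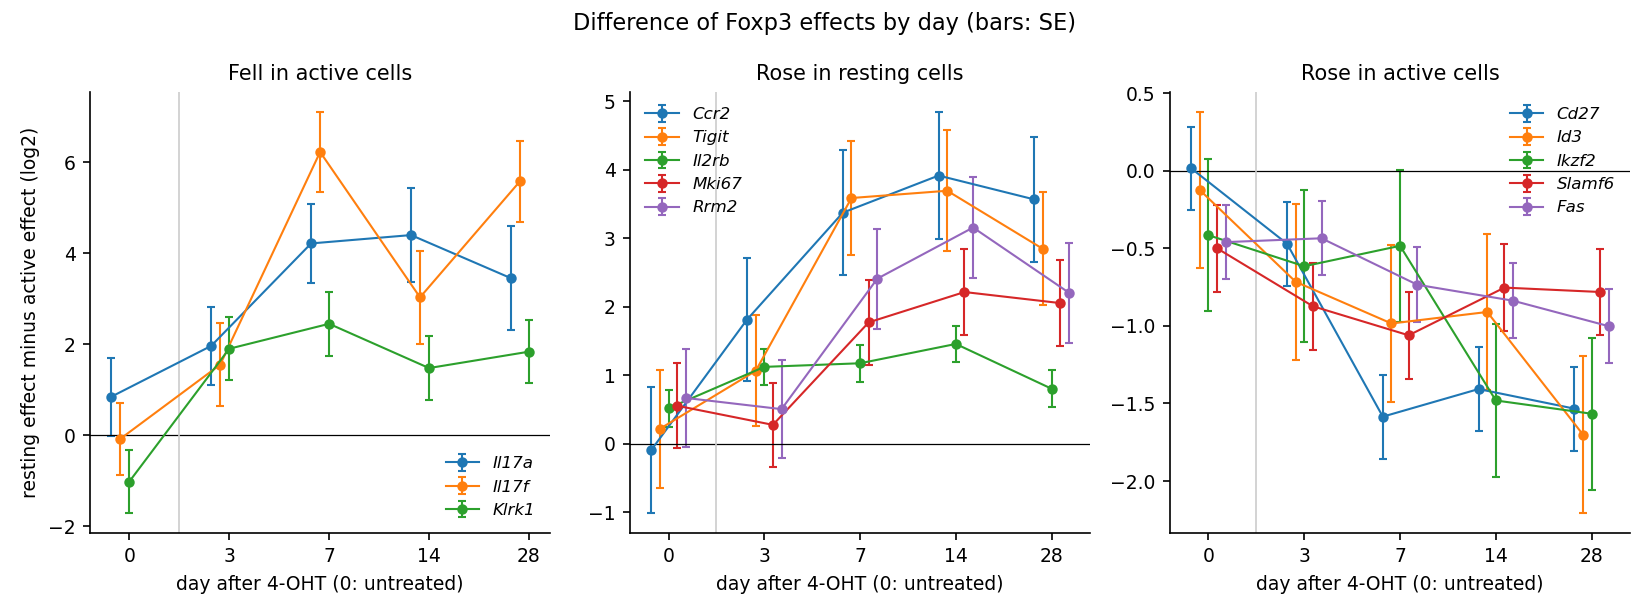
State difference (log2) at day 0, before 4-hydroxytamoxifen, and at days 3, 7, 14 and 28, for 13 genes in 3 panels by class, with bars of 1 standard error. Il17f goes from 1.55 at day 3 to 6.22 at day 7, Ccr2 from 1.81 to 3.37, and Cd27 from -0.47 to -1.59, while at day 0 they lie at -0.08, -0.09 and 0.02.

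The day 0 libraries, which the fit did not use, gave the background of the genotypes themselves. No gene was called at day 0 (0.0%) by edgeR, with 731 at an unadjusted P under 0.05 and 3 called by DESeq2. That count was not stable. Without the count filter edgeR called 203 genes at day 0, and the count also moved when single libraries were left out. Of the 198 positive genes 143 had a positive difference at day 0 (median 0.29), and of the 105 negative genes 72 a negative one (median -0.26), whereas 49.3% of all tested genes were positive and 50.7% negative. The day 0 libraries thus leaned to the same signs more often than all genes did. After the day 0 difference was subtracted from the later one, no gene was called and 821 had an unadjusted P under 0.05. Il17f (4.17), Ccr2 (3.26), Il17a (2.66), Tigit (2.58) and Cd27 (-1.26) kept most of their size in that subtraction. Havcr2 (-2.13), Gzmb (-2.79) and Itgae (-0.55) turned negative, and Il2rb went to 0.62. The day 0 value that was subtracted was 7.22 (SE 3.12) for Havcr2, 7.81 (SE 2.93) for Gzmb and 2.06 (SE 0.73) for Itgae. For Havcr2 and Gzmb it is a fold over resting minusFoxp3 libraries with 0 counts in both replicates. That arm was also near 0 at days 3 to 28, with medians of 0.0581 CPM of Havcr2 and 0.0216 CPM of Gzmb. The cause of the turns of sign was not tested.

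The day 0 libraries also showed how the states differed before Foxp3 was turned on. Of the 198 positive genes 181 were higher in active than in resting day 0 libraries, with a median log2 ratio of 1.09, computed with 0.1 CPM added. Of the 105 negative genes 90 were lower in active cells, with a median of -0.74. Over all tested genes 47.1% were higher in active cells and the median was -0.03. The positive genes were thus mostly higher, and the negative genes mostly lower, in active cells before Foxp3 was turned on. The size of the gap between states regardless of sign was not compared with that of other genes.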

How the data were processed

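The authors deposited featureCounts tables of raw read-pair counts per gene and library, from SMART-Seq v4 RNA-seq of sorted cells. Per the file headers featureCounts 2.0.3 counted pairs with both ends mapped against the GENCODE vM30 annotation of mm39 without strand, so a gene and an overlapping antisense gene cannot be told apart. The study's methods name STAR as the aligner and the submitters' processing notes name Bowtie2.

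Groups came from the sample labels. The 32 count columns were fitted with edgeR 4.0.16 in R 4.3.3 (TMM scaling, robust quasi-likelihood F test) with day, state, genotype and the product of state and genotype as terms, on 20736 of 55809 genes with a mean count of at least 10. P values were Benjamini-Hochberg adjusted and called under 0.05. A second fit, with a mean for each group of all 40 libraries, gave the differences at each day. Levels are CPM on each library's total count, without TMM scaling, and effects and differences are fitted with it, on the log2 scale. No 2 libraries of a group agreed within sampling noise. The fit was also run on simulated counts with known state differences. Those counts had a single dispersion and no effect of day, so the run does not cover uneven libraries or genotype differences at day 0.

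Foxp3, Thy1, Cd4 and Cd44 were named always, then, of called genes with a mean count of at least 100 that are not predicted genes or receptor segments, the 12 most positive and the 12 most negative, and up to 4 called members of each list by adjusted P; some genes that this rule picks are not reported here. The comparison, the members and the gene lists were chosen with earlier results of these data known. Alternatives were RLE scaling, no count filter, a mean count of at least 50, DESeq2 1.42.0, limma 3.58.1 voom, replicate blocks, other day terms, subtraction of day 0, and leaving out each library, each day and, chosen after seeing the data, the 4 libraries rich in Siglech or either replicate number.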

Additional observations from a re-analysis of the deposited data

Results flagged for a closer look

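The test of the difference itself drew attention to 303 genes whose Foxp3 effect differed between resting and active cells (edgeR quasi-likelihood test), and to 46 of the 50 genes named in the text. The positive differences, on the log2 scale, were 6.34 for Siglech, 6.12 for Pld4, 5.71 for Ly6d, 5.06 for Ctsh, 4.53 for Plaur, 4.36 for Fam167a, 4.23 for Havcr2, 4.11 for Pvrig, 4.06 for Il17f, 3.90 for Ccr10, 3.77 for Gzmb, 3.54 for Ccr1, 3.42 for Ly6c2, 3.29 for Il17a, 3.15 for Ccr2, 2.66 for Tigit, 2.27 for Cxcr6, 2.05 for Rrm2, 1.96 for Il1r2, 1.89 for Cdk1, 1.88 for Klrk1, 1.63 for Itgae, 1.56 for Mki67, 1.52 for Fgl2, 1.28 for Mcm3, 1.13 for Il2rb, 0.95 for Prdm1 and 0.68 for Sc5d. The negative differences were -1.82 for Slc28a2b, -1.5 for Mirt1, -1.43 for Pdzk1ip1, -1.28 for Cd27, -1.16 for Tmie, -1.13 for Id3, -1.10 for Ikzf2 and for Abcb9, -1.06 for Ifit1bl1, -1.01 for Ift80, -0.99 for H2-Ob and for Gramd3, -0.96 for Lef1, -0.90 for Il18r1, -0.88 for Actn1, -0.86 for Slamf6, -0.84 for Il21r and -0.76 for Fas.

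A single library stood far from the other 7 of its arm, by a Dixon ratio above its 95% critical value for 8, in 33 of 200 gene and arm combinations. Chance alone gives about 1 in 20, and the 8 libraries of an arm span 4 days, so a distant library may belong to 1 day. The active plusFoxp3 day 28 replicate 2 library accounted for 7, with 1.22 CPM of Ly6d, 152 CPM of Slc28a2b, 105 CPM of Id3, 49.6 CPM of Abcb9, 144 CPM of Ift80, 66.2 CPM of Il18r1 and 386 CPM of Il21r. Resting plusFoxp3 day 28 replicate 1 accounted for 5, with 4.16 CPM of Pvrig, 23.3 CPM of Gzmb, 5.09 CPM of Klrk1, 120.0 CPM of Ccr2 and 11.1 CPM of Ccr10. Active plusFoxp3 day 28 replicate 1 held 298.0 CPM of Cd44, 67.3 CPM of Gramd3, 689 CPM of Cxcr6 and 13.4 CPM of Klrk1. Active plusFoxp3 day 3 replicate 2 held 14.2 CPM of Il17f, 35.2 CPM of H2-Ob and 213 CPM of Mcm3. The day 28 plusFoxp3 libraries thus carried 16 of the 33 values.

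In the minusFoxp3 arms, resting day 3 replicate 2 held 6.47 CPM of Tigit, 4.74 CPM of Klrk1, 27.5 CPM of Il1r2 and 57.2 CPM of Sc5d, and resting day 3 replicate 1 held 0.205 CPM of Pvrig and 1.21 CPM of Gzmb. Resting day 7 replicate 2 held 1.25 CPM of Siglech and 0.824 CPM of Ccr10, and resting day 28 libraries held 0.0693 CPM of Fam167a (replicate 2) and 62.9 CPM of Rrm2 (replicate 1). Active day 7 replicate 1 held 290 CPM of Tigit and 384 CPM of Il1r2, and active day 28 replicate 2 held 17.0 CPM of Mirt1 and 22.8 CPM of Actn1. None of these was removed from the comparison.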

How the results depend on the processing

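The count of 303 genes stayed within 1.5 times of itself with RLE scaling, voom, a mean count of at least 50, other day terms, without day 3 and with a replicate block, but with voom (327 genes) 206 of the 303 were shared and 13 named genes lost their call: Siglech, Pld4, Plaur, Fam167a, Ccr1, Tmie, Il17a, Cxcr6, Il1r2, Ccr10, Rrm2, Cdk1 and Mki67. Of the 303, 154 of the 303 were called in each of the 32 fits that left out 1 library. It was 708 with DESeq2, 124 without a count filter (50316 genes tested), 69, 32 and 48 without day 7, 14 or 28 (24 libraries each), 141 without the 4 libraries rich in Siglech, 54 and 22 in libraries numbered 1 or 2 alone (16 libraries each), and 0 after the day 0 difference was subtracted (821 at an unadjusted P under 0.05). Leaving out 1 library gave 183 to 514 genes: 514 without active plusFoxp3 day 3 replicate 2, 201 without active minusFoxp3 day 7 replicate 2, 191 without active plusFoxp3 day 14 replicate 2, 191 and 198 without resting minusFoxp3 day 7 replicates 1 and 2, and 183 without resting plusFoxp3 day 14 replicate 1. Of the 46 named genes with a call, 31 were called in each of those fits, and the call was lost in 1 fit for Gzmb, Ift80 and Ly6c2, 2 for Plaur, 5 for Rrm2 and Tmie, 6 for Actn1 and Ikzf2, 11 for Prdm1, 12 for Abcb9, 14 for Cdk1 and Mki67, 18 for Id3, 20 for Itgae and 23 for Pdzk1ip1. By day, leaving the count filter out gave 203, 186, 454, 574 and 477 genes at days 0, 3, 7, 14 and 28 and 679 for the change across days, DESeq2 gave 3, 4, 40, 159, 70 and 9, and RLE scaling gave 4 at day 14. Leaving out 1 library gave 0 to 451 genes at day 0, 1 to 72 at day 7, 0 to 72 at day 14, 0 to 16 at day 28 and 0 to 1 for the change; the causes were not tested. After the day 0 difference was subtracted, the sign turned for Siglech (-0.69), Ly6d (-0.15), Plaur (-0.37), Fam167a (-1.20), Havcr2 (-2.13), Gzmb (-2.79), Ly6c2 (-1.46), Itgae (-0.55) and Ifit1bl1 (0.58), and no named gene turned under another alternative. Same-numbered resting and active libraries had correlations of their deviations from -0.01 to 0.24, over 0.1 on all 5 days without Foxp3 but under 0.1 at days 3 and 7 with Foxp3, so the numbers were not taken as pairs. A block on the replicate number gave 440 genes (302 of the 303), a block within genotype and day gave 380 (235 of the 303, without Fam167a, Il1r2, Ly6c2, Pdzk1ip1 and Plaur), and by day the former gave 12, 14 and 20 at days 7, 14 and 28. Counting depth limits genes such as Pvrig and Gzmb, which are near 0 in resting minusFoxp3 libraries.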

Other observations

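The families here were noticed after the values were seen, and their counts are a description. All 9 tested genes of the Gimap cluster had a negative state difference (median -0.44), and Gimap4, Gimap6, Gimap7 and Gimap1os were called. Gimap genes encode small GTPases of lymphocyte survival, but Gimap1os is an opposite-strand transcript. Counts without strand cannot tell Gimap1os apart from an overlapping gene. All 8 subunits of the CCT chaperonin, which folds actin and tubulin, had a positive difference with a median of 0.28, and 3 were called. Of 56 tested joining segments of the T cell receptor α locus 54 were negative (median -0.60) and 4 were called, whereas all 4 tested Trgc constant segments of the γ locus were positive and 2 were called. Segments of these loci share sequence, and reads of near-identical copies may be split between them.

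Ighm, the immunoglobulin heavy chain of B cells, rose in both states, by 0.82 in resting and 2.15 in active cells, with a state difference of -1.33 (SE 0.19, edgeR adjusted P = 0.000239). Its median was 997 CPM with and 611 CPM without Foxp3 in resting cells, and 1255 and 307 CPM in active cells. The B cell gene Cd79a stayed at or below 9.09 CPM in all 32 libraries. The summed B cell list of 8 genes ran from 704 to 1660 CPM in resting plusFoxp3, 515 to 674 CPM in resting minusFoxp3, 758 to 2384 CPM in active plusFoxp3 and 231 to 415 CPM in active minusFoxp3 libraries, and consisted mostly of Ighm.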
